A study of Mus musculus with 7 samples.

Results

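Chemokines are small secreted proteins that steer leukocytes into and through tissues, and chemokine receptors are the G protein-coupled receptors through which cells sense them. The genes described here were chosen by symbol alone. A probe set was taken where the platform annotation gave it a lone gene, and that gene was a numbered Ccl, Cxcl, Ccr or Cxcr gene, Cx3cl1, Cx3cr1, Xcl1 or Xcr1. This gave 76 of 34945 probe sets with 1 gene each, which stood for 48 of 18193 genes, of which 32 encoded ligands and 16 receptors. For 30 of the 48 genes there was 1 probe set. For the other 18 the brightest probe set, by mean log2 intensity across the arrays, represented the gene.

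Gene expression had been measured on 7 Affymetrix mouse arrays, and values are linear signal intensities. The tissues were dissected basal cell carcinoma (tumour, 2 arrays) and normal epidermis of newborn mice, labelled P0 (epidermis, 2 arrays). The other 3 arrays held the mouse basal cell carcinoma line PDKC1, as untreated cells (0 h) and after 6 h and 10 h with cyclopamine, which inhibits the Hedgehog signal transducer Smoothened. Strain, genotype, the age of the tumour-bearing mice, the origin of the line and the cyclopamine dose were not stated. Age and carcinoma cannot be told apart in the tissue comparison. Nothing in the labels says that replicates were separate animals, so the p-values reflect the spread among these arrays alone, and this may be technical. PDKC1 is 1 line with 1 array per time, so its differences have no replicate check and no test.

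The keratinocyte marker Krt5 was bright on all 7 arrays, from 26659 to 35513, and the 8 keratinocyte markers summed to 135477.8 and 96363.6 in tumour and 199526.6 and 227695.2 in epidermis, with 3 called lower in tumour (Ivl, Krt1 and Krt14) and none higher. Stromal markers were also brighter in tumour: the summed intensity of 10 fibroblast markers was 67921 and 80020.2 in tumour, 16251 and 13889.7 in epidermis and 1680.5 in PDKC1 at 0 h. By the test used below, 8 of these 10 were higher in tumour and 1 was lower, against 16.6% and 12.5% of all genes. Also higher were 5 of 8 mast cell markers, 3 of 5 of lymphatic endothelium, 3 of 7 of skeletal muscle and 0 of 6 of B and plasma cells. The part of all these markers in the results was not tested. The tissue arrays were made from 100 ng of RNA and the PDKC1 arrays from 2 µg. The Actb control probe sets had a 3' to 5' intensity ratio of 11.3 and 93.1 in the tumours, 2.84 to 3.98 in the epidermis and 1.15 to 1.21 in PDKC1, and the part of this gap in the results was not tested. The median probe set was at 118.2 and 127.9 in the tumours and at 71.0 to 78.1 on the other 5 arrays.

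The names of chemokines follow the spacing of their first cysteines. Those CXC chemokines that carry a Glu-Leu-Arg motif before them, such as Cxcl1 and Cxcl2, bind CXCR2 and draw neutrophils, and CC chemokines such as Ccl2 draw monocytes, eosinophils and lymphocytes. Others are made constantly: Cxcl12 by stroma, where it retains cells that carry CXCR4, and Cxcl14 by keratinocytes, while in the skin of mice CX3CR1 marks resident macrophages, Langerhans cells and some T cells.

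Many inducible chemokine genes carry NF-kB sites close to their start, and 3 promoters are shown because their genes lie in 1 cluster on chromosome 5 (in the order Cxcl3, Cxcl15, Cxcl1, Cxcl2), encode neutrophil attractants and were brighter on both tumour arrays than on either epidermis array. The 250 bases before the annotated start of each gene were read from RefSeq (GRCm38.p6, plus strand), at chr5:90890995-90891244 for Cxcl1, chr5:90903649-90903898 for Cxcl2 and chr5:90785851-90786100 for Cxcl3. Capitals mark bases that match the NF-kB consensus on either strand.
Cxcl1: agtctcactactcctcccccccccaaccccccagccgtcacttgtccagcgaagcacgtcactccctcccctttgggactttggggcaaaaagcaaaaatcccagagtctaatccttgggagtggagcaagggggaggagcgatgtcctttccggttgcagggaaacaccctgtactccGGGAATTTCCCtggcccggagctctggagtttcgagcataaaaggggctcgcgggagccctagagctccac
Cxcl2: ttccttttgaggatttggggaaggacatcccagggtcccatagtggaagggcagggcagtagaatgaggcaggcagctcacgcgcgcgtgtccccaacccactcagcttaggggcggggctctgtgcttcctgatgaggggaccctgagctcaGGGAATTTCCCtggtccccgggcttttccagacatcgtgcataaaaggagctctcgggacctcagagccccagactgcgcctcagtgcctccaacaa
Cxcl3: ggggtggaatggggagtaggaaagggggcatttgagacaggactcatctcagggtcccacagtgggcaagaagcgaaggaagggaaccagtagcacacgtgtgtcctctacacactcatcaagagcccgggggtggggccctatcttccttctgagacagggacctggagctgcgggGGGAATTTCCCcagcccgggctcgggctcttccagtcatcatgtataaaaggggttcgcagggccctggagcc

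In each of these promoters the matches form the same run of 11 bases, GGGAATTTCCC, which begins 71 bases before the start of Cxcl1, 97 before that of Cxcl2 and 73 before that of Cxcl3. The run was picked from these sequences after they were seen. It occurred in 14 of 32851 promoter windows (0.0426%), and among the chemokine and receptor genes in these 3 alone. RefSeq windows were at hand for 35 of the 48 genes, which had 37 promoters. The NF-kB consensus was matched in 10 of the 37 (27.0%) and in 7.25% of all windows. The other motifs searched on both strands were a TATA box (TATAAA, 29.7% of the 37 and 12.4% of all), an interferon response core (GAAANNGAA, 16.2% and 7.13%), AP-1 (TGANTCA, 10.8% and 6.75%) and a GLI site (TGGGTGGTC, 0 of 37 and 0.225%). Matches of different motifs overlapped in 0 of the 37. A match is a stretch of letters in this window, and promoters of clustered paralogs share descent, so the 37 are not independent.

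In the tissue comparison, 6 chemokine or receptor genes were higher in tumour and 3 were lower. The higher genes were the CCR8 ligand Ccl8, the monocyte attractant Ccl2, the stromal chemokine Cxcl12 and its receptor Cxcr4. The CCR1 ligand Ccl9 and the neutrophil attractant Cxcl1 were higher too. The lower genes were Cxcl14, Cx3cl1 and the receptor of the latter, Cx3cr1. A gene was called where limma on log2(intensity + 16) gave a Benjamini-Hochberg adjusted p under 0.05 over all 18193 genes. The 6 higher genes were 12.5% of the 48, against 16.6% of all genes tested, and the 3 lower genes were 6.25%, against 12.5% of all, so the genes as a group were called no more often than other genes of the array. The median log2 difference, tumour minus epidermis, was 0.10 over the 48 genes and 0.09 over all genes. It was 0.59 over the ligands and -0.23 over the receptors, but after quantile normalization these medians were 0.10 and -0.78, and after centring they were -0.05 and -0.87, so that the sign of the ligand median turned.

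Both tumour arrays were above both epidermis arrays for 20 of the 48 genes (41.7%), against 35.8% of all genes, and below both for 12 (25.0%), against 29.8%. Unadjusted p was under 0.05 for 20 of the 48, but the share over all genes was not counted, so nothing is read from this count. Another scaling moved the counts of calls: quantile normalization left 2 genes higher and 8 lower, and so did centring each array on its median. These stand against 11.9% of all genes higher and 14.8% lower with the first and 8.04% and 25.9% with the second. The median of all genes moved from 0.09 to -0.19 and -0.55. Ccl8 and Cxcl12 were the 2 that stayed higher under each scaling. The 8 lower ones were then Cxcl14, Cx3cl1, Cx3cr1, Ccl6, Cxcl13, Cxcl16, Cxcl17 and Ccr9 in each case. Because the tissues are mixtures, fewer cells of a type and less RNA per cell cannot be told apart in any of these differences.

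**Figure D1:**
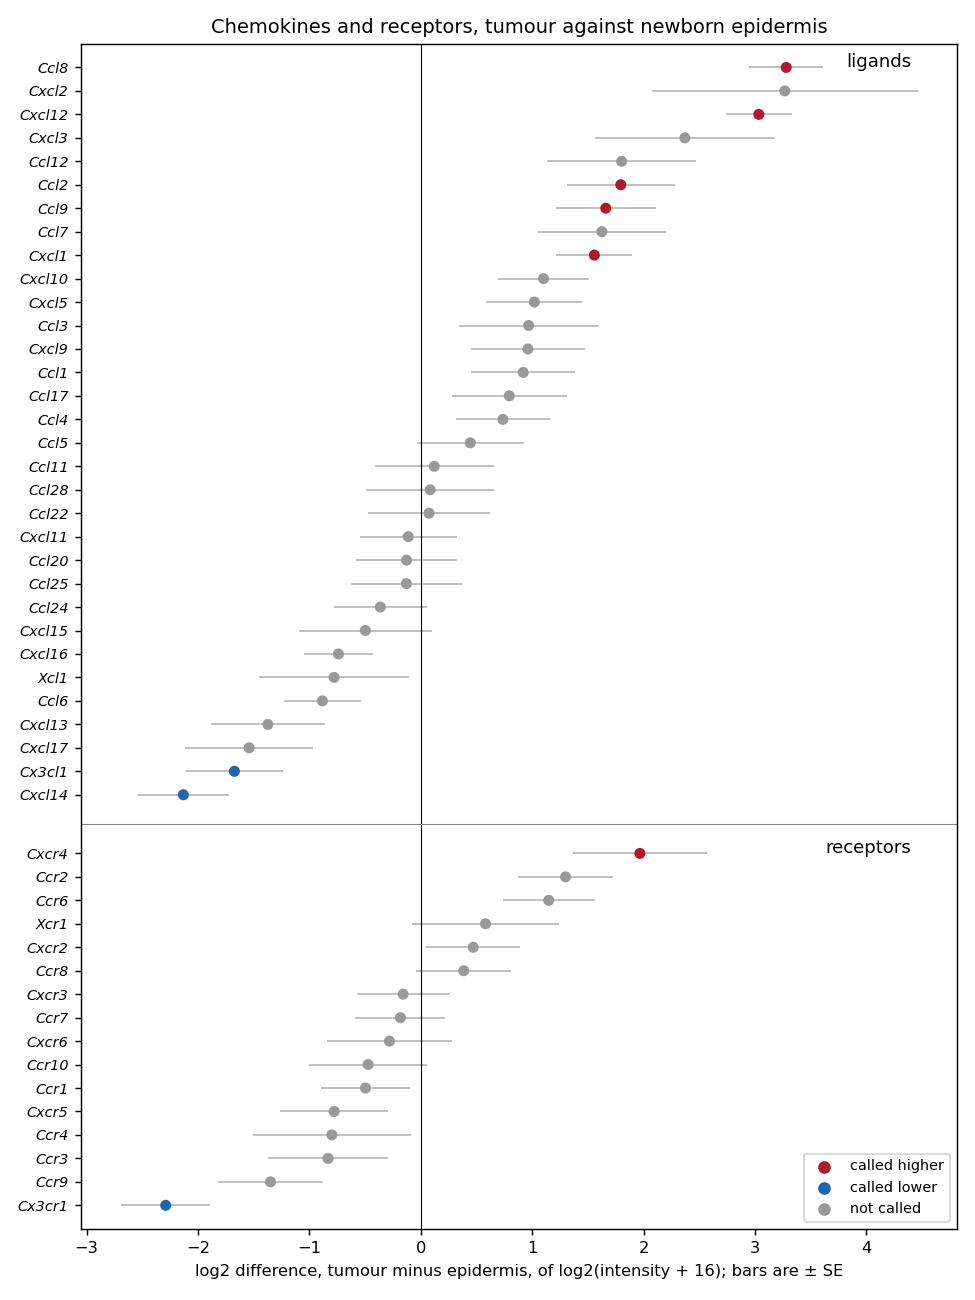
Log2 difference in intensity, tumour minus newborn epidermis (x axis), for 32 ligands (above the line) and 16 receptors (below it), each group sorted by difference; points are estimates from 2 arrays per group and bars are ± SE. Red points are the 6 genes called higher, blue points the 3 called lower and grey points the 39 not called; Cxcl2, at 3.27, lies beside Ccl8, at 3.28, but has a far wider error bar.

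The ligands of CXCR2 came first in the order of roles. Cxcl1 was at 497.4 and 748.1 in the tumours, 229.7 and 168.1 in the epidermis and 394.0, 404.8 and 351.5 in PDKC1 at 0, 6 and 10 h. The tumour arrays did not overlap with the epidermis arrays, and PDKC1 lay between them. The log2 difference was 1.56 ± 0.34 (SE, 2 arrays per group), a 2.94-fold difference (limma, adjusted p = 0.0159). All 3 probe sets of Cxcl1 were higher in tumour, by 1.56, 2.74 and 2.95. The probe set that stood for the gene is of the kind with probes shared with other sequences, so a part of its signal may belong to a related gene.

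Cxcl2, which binds the same receptor, was at 188.8 in tumour 1 and 3758.1 in tumour 2, at 94.7 and 59.3 in the epidermis and at 15.6, 30.6 and 7.1 in PDKC1. The tumours were thus both above the epidermis but differed from each other by 19.9-fold. The mean difference of 3.27 ± 1.19 was not called (limma, adjusted p = 0.0840). Without tumour 1 it was 5.37 (adjusted p = 3.68e-05), and without tumour 2 it was 1.17 (adjusted p = 0.142).

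Cxcl3 had the same shape, at 44.7 in tumour 1, 328.0 in tumour 2, 12.5 and 11.4 in the epidermis and 2.4, 30.8 and 7.5 in PDKC1. Tumour 2 was 7.34 times as bright as tumour 1, and both were above the epidermis. The difference of 2.37 ± 0.81 was not called (adjusted p = 0.0687), and it was 3.62 without tumour 1 (adjusted p = 0.00192) and 1.12 without tumour 2 (adjusted p = 0.169). Cxcl5, a further ligand of CXCR2, was at 37.1 and 25.2 in tumour and 6.0 and 8.2 in epidermis, under the median of each of these arrays. Cxcl15, the lung-enriched member of the group, was at 4.1 to 42.7 over the tissue arrays, and the groups overlapped. Of the 5 neutrophil attractants 1 was called higher (16.6% of all genes were) and none lower, with a median difference of 1.56, and for 4 of the 5 both tumours were above both epidermis arrays, as for 35.8% of all genes.

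Markers of neutrophils moved with Cxcl2 and Cxcl3 in part. S100a8 read 2395.3 in tumour 1 and 7955.5 in tumour 2 but 61.8 and 85.3 in the epidermis, and S100a9 read 633.9 and 1852.2 but 46.8 and 64.7. Both calprotectin genes were thus highest in tumour 2, as Cxcl2 and Cxcl3 were, and both were called higher (5.63 and 3.95, adjusted p = 0.00102 and 0.00273), although keratinocytes of inflamed skin make them too. The other 4 of the 6 measured markers (Csf3r, Mpo, Elane and Cd177) were not called. The receptor of these chemokines, Cxcr2, was at 12.3 and 21.3 in tumour and 7.2 and 7.7 in epidermis, under the median of every array. The summed intensity of the 6 markers was 3241.2 and 10046.0 in tumour and 412.1 and 444.6 in epidermis. Most of the tumour sums came from S100a8 and S100a9. Both tumours were above both epidermis arrays for 2 of the 6 markers and below both for 2, with a median difference of 0.02. Of all genes, 35.8% were above and 29.8% below in this way. The part of the markers in the chemokine values was not tested.

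**Figure D2:**
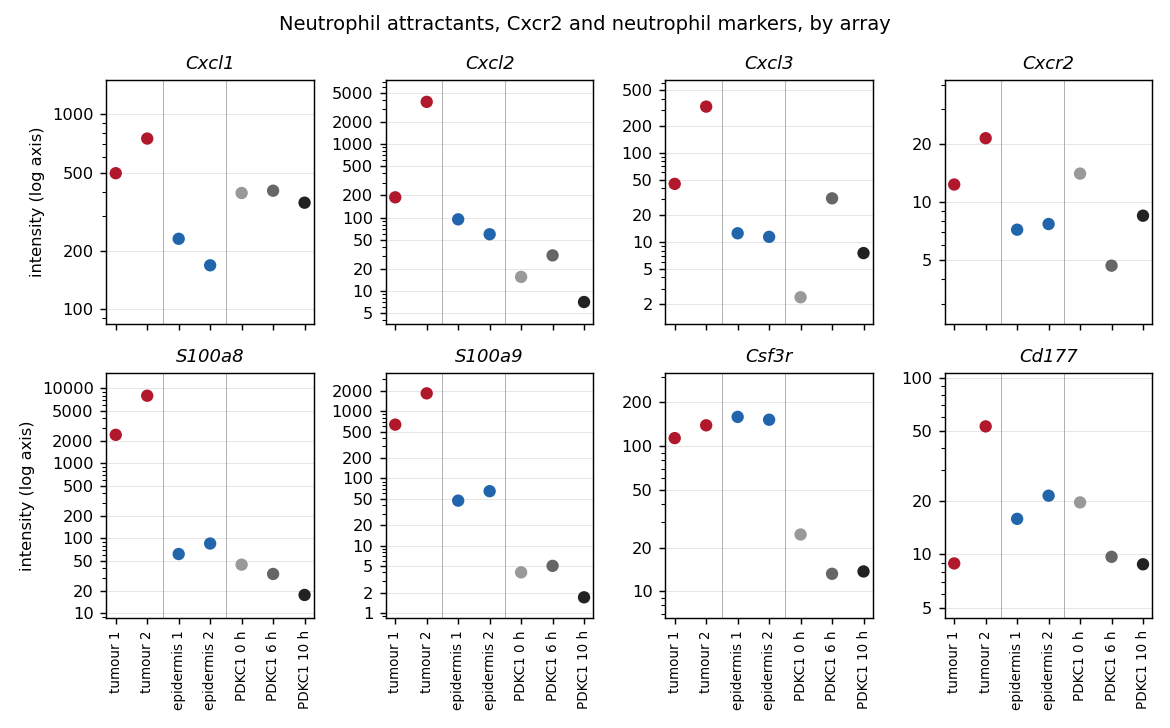
Intensity on a log axis (y) on each of the 7 arrays (x) for the neutrophil attractants Cxcl1, Cxcl2 and Cxcl3, their receptor gene Cxcr2 and 4 neutrophil markers; each point is 1 array, and the scale differs between panels. Cxcl2, Cxcl3, S100a8 and S100a9 peak in tumour 2, while Csf3r lies between 113.3 and 158.6 on all 4 tissue arrays.

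None of the ligands of CXCR3, the receptor of activated T and NK cells, was called. Cxcl10, the brightest of them, was at 205.2 and 208.9 in tumour, 68.6 and 111.6 in epidermis and 54.5, 40.9 and 6.0 in PDKC1. The tumour arrays were close to each other and above the epidermis, with a difference of 1.10 ± 0.41 (adjusted p = 0.0886). It passed the threshold in 1 of 15 alternatives, with genes of mean level under the 40th percentile dropped (adjusted p = 0.0469), and was 0.41 with quantile normalization (0.524) and 0.46 with centring (0.411). The median difference of the 3 ligands was 0.96. The 8 measured T and NK cell markers summed to 335.0 and 544.4 in tumour and 350.4 and 312.3 in epidermis, and 0 of them were called.

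Cxcl12, the ligand of CXCR4, was the CXC chemokine with the largest called difference between the tissues. It was at 1184.3 and 1356.8 in tumour, 169.5 and 116.3 in epidermis and 7007.2, 5945.6 and 4731.6 in PDKC1 at 0, 6 and 10 h. The order was PDKC1, tumour, epidermis, with no overlap. The tissue difference was 3.03 ± 0.30, an 8.19-fold difference (limma, adjusted p = 0.00108), and it was called in all 15 alternatives in which it was fitted. In untreated PDKC1 its intensity was 5.52 times the tumour mean and lay at percentile 97.8 of the array's probe sets. Of the 10 fibroblast markers, a cell type that makes Cxcl12 in skin, 4 passed the median of their brightest PDKC1 array: at 0 h Fbln1 was at 1051.2, Col1a2 at 267.6, Dcn at 118.7 and Thy1 at 77.8, while the other 6 were between 6.9 and 46.9. The part of these markers in the Cxcl12 values was not tested. Another probe set of Cxcl12 was called higher too (3.72), and it read 8790.8 in PDKC1 at 0 h. The dimmest of the 3 pointed the other way, at 25.0 and 6.9 in tumour and 46.8 and 31.0 in epidermis, and was not called (-0.83), and the mean of the 3 probe sets differed by 1.98 (adjusted p = 0.00999).

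Cxcl14 ran the other way. This chemokine of normal epithelium was at 973.5 and 403.1 in tumour, 2435.3 and 3230.4 in epidermis and 4443.7, 2878.7 and 1467.6 in PDKC1 at 0, 6 and 10 h. Both tumours were below both epidermis arrays, while untreated PDKC1 was above all 4. The difference was -2.13 ± 0.41, with epidermis 4.38-fold brighter (adjusted p = 0.00986), and the other probe set gave -1.92, also called. The keratinocyte marker sums were lower in tumour as well (3 of 8 markers called lower, 12.5% of all genes), and their part in this difference was not tested. Of the rest of this group, Cxcl16, which binds CXCR6, was at 241.9 and 205.5 in tumour and 421.5 and 348.1 in epidermis (-0.74, adjusted p = 0.125). Cxcl13, the B cell attractant, had probe sets of opposite sign: the one that stood for the gene was at 10.4 and 36.3 in tumour and 88.6 and 72.5 in epidermis (-1.37, adjusted p = 0.0905), and the other at 46.8 and 50.0 against 2.5 and 6.5 (1.66, called higher). The latter was under the median of every array, so no direction is given for Cxcl13. The median difference of the 5 genes was -1.37, which is Cxcl13's own value, and it was -0.74 with the other Cxcl13 probe set in its place.

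In the list of CC attractants of monocytes and eosinophils, Ccl8 had the largest called difference. Ccl8, a ligand of CCR8 in the mouse, was at 855.4 and 1014.7 in tumour, 98.5 and 67.1 in epidermis and 138.1, 48.9 and 162.0 in PDKC1. Both tumours stood far above the other 5 arrays. The difference was 3.28 ± 0.33, or 9.72-fold (limma, adjusted p = 0.00116), and it was called in all 15 alternatives in which it was fitted.

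Ccl2, the main ligand of CCR2 on monocytes, was at 70.7 and 80.1 in tumour, 4.1 and 18.4 in epidermis and 82.8, 195.5 and 234.5 in PDKC1. The tumour arrays were above the epidermis, but all 4 tissue values were under the median of their array. The difference was 1.80 ± 0.48, or 3.47-fold (adjusted p = 0.0325). Its neighbour on chromosome 11, Ccl7, which also binds CCR2, was at 104.7 and 47.6 in tumour and 24.5 and 3.9 in epidermis (1.63 ± 0.57, adjusted p = 0.0759). Ccl12, a mouse relative of Ccl2 in the same cluster, was at 197.0 and 104.9 in tumour and 9.4 and 67.3 in epidermis (1.80, adjusted p = 0.0879). The eosinophil attractants Ccl11 and Ccl24 were under the median of every array. Of the 6 genes 2 were called higher and none lower, against 16.6% and 12.5% of all genes, and the median difference was 1.71.

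Many CC chemokine genes lie together on chromosome 11, though Ccl24 is on chromosome 5: in the annotated order of coding genes Ccl2, Ccl7, Ccl11, Ccl12, Ccl8 and Ccl1 are consecutive, and so are Ccl5, Ccl9, Ccl6, Ccl3 and Ccl4. Within the first run Ccl2 and Ccl8 were called higher, while the tumour and epidermis values of Ccl11, which lies between them, overlapped at 12.8 and 26.1 against 30.6 and 6.0. Within the second, Ccl9 and its neighbour Ccl6 differed in sign. Probes of close paralogs can share sequence, and how far they did so here was not tested.

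Ccl9, a ligand of CCR1 made by myeloid cells, was at 204.1 and 227.7 in tumour, 39.8 and 80.2 in epidermis and 37.8, 58.6 and 35.6 in PDKC1. The tumour arrays were alike and above the rest. The difference was 1.66 ± 0.45, or 3.16-fold (adjusted p = 0.0331), but a dimmer probe set under the median of every array read 26.8 and 3.3 in tumour and 4.4 and 45.3 in epidermis, and the mean of both gave 0.68 (adjusted p = 0.382). Ccl6, another CCR1 ligand of myeloid cells, was at 133.0 and 160.0 in tumour and 309.9 and 257.8 in epidermis (-0.88, adjusted p = 0.105). Its other probe set was at 182.1 and 149.5 against 765.9 and 444.8 and was called lower (-1.73, adjusted p = 0.0127). Both probe sets of Ccl6 thus placed the epidermis above the tumours, and the mean of both was called lower (-1.31, limma, adjusted p = 0.0179). Of the 5 genes of this group 1 was called higher, against 16.6% of all genes, with a median difference of 0.74.

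Of the 6 CC chemokines of skin, lymphoid organs and mucosa none was called. Their brightest value was for Ccl25, a thymic and gut chemokine, at 193.9 in PDKC1 at 0 h, with 46.4 and 84.5 in tumour and 53.9 and 91.3 in epidermis. The tissues overlapped. Ccl17, a skin-homing ligand of CCR4, was at 82.2 and 151.8 in tumour and 40.3 and 81.3 in epidermis. Ccl20, the ligand of CCR6 that keratinocytes make under stimulation, was at 4.2 to 15.6 on all 7 arrays. The median difference was 0.08, which turned to -0.34 with quantile normalization and -0.56 with centring.

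Cx3cl1, the membrane-bound ligand of CX3CR1, was at 87.0 and 46.4 in tumour, 223.5 and 257.0 in epidermis and 229.7, 181.2 and 233.4 in PDKC1. The tumours lay below the other 5 arrays. The difference was -1.67 ± 0.43, with epidermis 3.19-fold brighter (adjusted p = 0.0287). Of its 4 probe sets this one alone was called, and 2 of the dimmer ones had positive differences of 0.78 and 0.77, so the mean over probe sets was -0.13 (adjusted p = 0.848). Xcl1, the lymphocyte attractant of the XC group, was at 20.2 and 91.6 in tumour and 57.1 and 140.8 in epidermis, and the groups overlapped.

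The receptor called lower was that of Cx3cl1. Cx3cr1 was at 68.7 and 139.9 in tumour, 562.8 and 529.6 in epidermis and 11.5, 10.1 and 88.7 in PDKC1. The epidermis arrays were close to each other and above all others. The difference was -2.29 ± 0.40, with epidermis 4.89-fold brighter (limma, adjusted p = 0.00704). Its other probe set read 4.3 to 20.3 on the tissue arrays and was not called, and the mean of both differed by -1.28 (adjusted p = 0.0458).

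Markers of the cells that usually carry Cx3cr1 did not all go its way. Of 12 macrophage markers 1 was called lower, as were 12.5% of all genes. It was Adgre1, at 218.5 and 226.3 in tumour and 551.2 and 536.5 in epidermis (-1.23, limma, adjusted p = 0.0186). Cd163, Mertk and Mrc1 were called higher in tumour, by 4.23, 3.59 and 1.18, as were 16.6% of all genes. The summed intensity of the 12 was 13384.5 and 15062.1 in tumour and 9755.4 and 8462.2 in epidermis. Of 8 Langerhans and dendritic cell markers 3 were called higher, all MHC class II genes, again against 16.6% of all genes. The Langerhans cell marker Cd207 was at 66.8 and 91.6 in tumour and 53.6 and 4.6 in epidermis. These values were under the median of their array, so no direction is given for Cd207. The part of these cells in the Cx3cr1 and chemokine values was not tested.

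The receptor called higher was Cxcr4, the receptor of Cxcl12. It was at 263.0 in tumour 1 and 770.7 in tumour 2, 66.1 and 159.0 in the epidermis and 33.0, 3.8 and 26.8 in PDKC1. Both tumours were above the epidermis, though tumour 1 and epidermis 2 were near each other. The difference was 1.97 ± 0.60, or 3.91-fold (adjusted p = 0.0491), just under the threshold, and it was 1.22 without tumour 2 (adjusted p = 0.150). The call was also lost with no variance trend (adjusted p = 0.0883), a pseudocount of 64 (0.0554), without epidermis 1 (0.259) or epidermis 2 (0.0836), quantile normalization (0.179) and centring (0.117). In PDKC1 Cxcr4 was under the array's median at all 3 times. Markers of endothelium, a further cell type that carries Cxcr4, were called higher for 3 of 8 genes (16.6% of all genes were) and lower for none. Their part was not tested.

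Of the 9 CC receptors measured none was called, and their median difference was -0.47. Ccr2, the receptor of Ccl2 and Ccl7, was at 153.5 and 198.2 in tumour and 50.3 and 74.4 in epidermis (1.30 ± 0.43, adjusted p = 0.0619). Ccr6, which binds Ccl20, was at 155.2 and 197.8 in tumour and 60.6 and 81.2 in epidermis (1.15 ± 0.41, adjusted p = 0.0812). On these probe sets the tumours lay above the epidermis without overlap, but quantile normalization brought the differences to 0.70 and 0.51 and centring to 0.66 and 0.51. Of the 4 Ccr2 probe sets 1 had the opposite sign, at 47.6 and 46.2 in tumour and 85.2 and 38.4 in epidermis (-0.24), and the mean of all 4 was 0.56 (adjusted p = 0.312). Ccr9, the receptor of Ccl25, was at 30.0 and 61.9 in tumour and 155.3 and 119.8 in epidermis (-1.35, adjusted p = 0.0762). This probe set, too, is of the kind with probes shared with other sequences. Of the 5 Ccr9 probe sets none was called and 1 had the opposite sign (0.14), and the mean of all was -0.78 (adjusted p = 0.191). Ccr7, which guides dendritic cells to lymph nodes, was at 3.0 to 9.4 on the tissue arrays. Cxcr3 was at 92.5 and 138.9 in tumour and 116.3 and 142.2 in epidermis, and the groups overlapped.

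**Figure D3:**
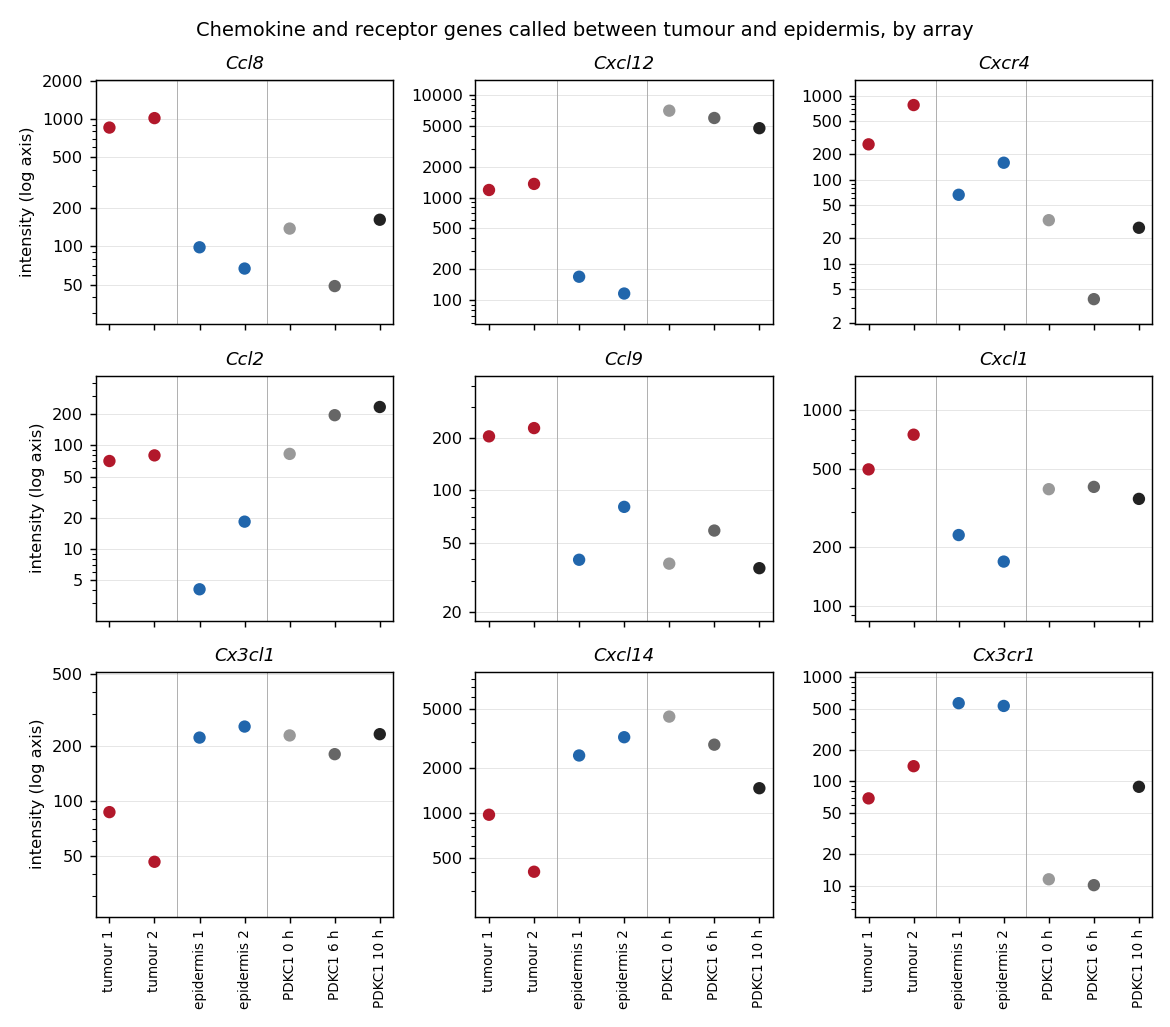
Intensity on a log axis (y) on each of the 7 arrays (x) for the 9 genes called between tumour and epidermis; each point is 1 array, vertical lines separate tumour, epidermis and PDKC1, and the scale differs between panels. Cxcl12 is brightest in PDKC1, at 4731.6 to 7007.2, and Cx3cr1 in the epidermis, at 529.6 and 562.8.

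Over the 48 genes, 17 were above the array's median probe set on no array and 31 on at least 1. The 3 genes above it on all 7 were Cxcl1, Cxcl12 and Cxcl14. Between 14 and 19 of the genes were above it on each tissue array and 11 on each PDKC1 array. Of the 9 calls, those of Cxcl1, Ccl2, Ccl9, Cxcr4, Cxcl14, Cx3cl1 and Cx3cr1 were lost when either epidermis array was left out. That left 1 epidermis array, and fewer genes of the whole array were called too. The calls of Ccl2, Ccl9 and Cxcr4 were lost without tumour 2 as well.

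Genes around the chemokine system were counted in lists, with the same test. Of 15 near relatives that the choice of symbols leaves out 3 were higher and 1 lower (of all genes 16.6% were higher and 12.5% lower), with a median difference of 0.64, which was 0.06 with quantile normalization and 0.00 with centring. Pf4, the platelet chemokine, was at 1779.7 and 877.8 in tumour and 218.1 and 192.6 in epidermis, and the scavenger receptor gene Ackr4 at 494.5 and 494.8 against 90.3 and 70.8. Cd74, the receptor of the cytokine MIF and the invariant chain of MHC class II, was higher by 2.86. Dpp4, the protease that trims Cxcl12, Cxcl10 and other chemokines, was lower, at 164.9 and 345.7 in tumour and 756.8 and 948.8 in epidermis (-1.76, adjusted p = 0.0159). These are RNA levels of mixed tissues, and a link between Dpp4 and the chemokine values was not tested.

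Downstream of the receptors, 5 of 20 genes were higher and 3 lower, against 16.6% and 12.5% of all genes. Their median of 0.64 turned to -0.09 with quantile normalization and was 0.00 with centring. The G protein subunit gene Gnai2, which couples chemokine receptors, was higher (1.39), as were Pik3cg, the lipid kinase of leukocyte chemotaxis (2.13), and the receptor kinase genes Grk6, Grk3 and Grk5 (1.73, 1.63 and 1.60). Gnb2, Gnai3 and Gnb1 were lower (-1.81, -1.74 and -0.93). Of 15 genes of the NF-kB pathway 6 were higher and 1 lower, against the same shares of all genes, 16.6% and 12.5%. Their median of 0.35 turned to -0.29 with centring. Nfkbie, Nfkbiz and Tnfaip3, themselves NF-kB targets, were higher (3.45, 1.51 and 1.51), and Nfkbib was lower (-1.64). The rest of the higher genes of this list are not named, and activity of the pathway was not tested.

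Of 21 cytokines and receptors known to induce chemokines 3 were higher and 3 lower, against 16.6% and 12.5% of all genes. The median of 0.18 turned to -0.33 and -0.46 under the other scalings. Tslp, Il6 and Il33 were higher in tumour, by 2.19, 1.87 and 1.71. Il6 was at 67.8 and 52.7 in tumour and 6.2 and 3.5 in epidermis, under the median of these arrays. The interleukin 36 gene Il1f6, the receptor gene Il17rc and Il1a were lower, by -3.90, -2.43 and -2.21, and Il1f6 was at 264.0 and 157.6 against 3752.0 and 2875.4. Since the list was made of inducers and their receptors, that genes called in either direction are of this kind is no result.

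In PDKC1 the cells with cyclopamine for 6 h and 10 h were compared with the untreated cells of 0 h. No array held cells kept for the same hours without cyclopamine. Effects of the drug, of its solvent and of time in culture therefore cannot be told apart. Of the 48 genes 15 passed a filter on level, which was that the brightest PDKC1 array was above that array's median probe set. Of these 15, the neighbours Ccl2 and Ccl7 were at least 2-fold higher at both 6 h and 10 h, and Ccr6 was at least 2-fold lower at both; of all 11581 genes that passed, 0.924% were higher and 1.01% lower at both. Ccl7 passed the filter only through the treated arrays and Ccr6 only through the 0 h array, so the shares of the 15 are not read against these. Without the filter 2 of the 48 genes were higher at both (1.69% of all genes) and 3 were lower, Ccr6, Cxcl5 and Ccr8 (2.73% of all). Both treated arrays share the 0 h array, so a low or high reading there moves both differences. Over the 48 genes the median log2 difference was -0.06 at 6 h and -0.07 at 10 h, against -0.02 and -0.01 over all genes.

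Ccl2 was at 82.8, 195.5 and 234.5 at 0, 6 and 10 h, 2.14-fold and 2.54-fold from 0 h. Ccl7 was at 39.5, 122.6 and 178.2, 2.50-fold and 3.50-fold from 0 h. For both the 10 h array was the brightest, and both are monocyte attractants that were also above the epidermis in the tumours. With a pseudocount of 64 in place of 16 neither reached 2-fold at 6 h (0.82 and 0.85 on the log2 scale). Ccr6 was at 104.4, 33.0 and 43.8, 2.46-fold and 2.01-fold lower, and with quantile normalization its difference at 10 h was -0.94, short of 2-fold.

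Cxcl12 and Cxcl14 were the brightest of the 48 in untreated PDKC1, at percentiles 97.8 and 96.2 of the array's probe sets. Cxcl14 was at 4443.7, 2878.7 and 1467.6, which is 1.54-fold lower at 6 h and 3.01-fold lower at 10 h, and its other probe set was at 1198.8, 947.8 and 498.3. Both probe sets were lowest at 10 h. Cxcl12 was at 7007.2, 5945.6 and 4731.6, a log2 difference of -0.24 at 6 h and -0.56 at 10 h. Its other called probe set was at 8790.8, 8167.5 and 7095.6, also lowest at 10 h.

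The next in brightness at 0 h were Cxcl1, Cx3cl1, Ccl25 and Ccl8. Cxcl1 was at 394.0, 404.8 and 351.5, Cx3cl1 at 229.7, 181.2 and 233.4 and Ccl25 at 193.9, 190.1 and 161.2. None of these 3 moved by 2-fold at either time. Ccl8 was at 138.1, 48.9 and 162.0, lower at 6 h (-1.25) and back above its first value at 10 h (0.21). Cxcl16, at 124.4, 117.3 and 38.7, was lower at 10 h alone (-1.36), but its other probe set was at 3.3, 45.3 and 2.2, and the mean of both gave 0.80 at 6 h and -0.72 at 10 h. Cx3cr1, at 11.5, 10.1 and 88.7, was higher at 10 h alone (1.93), but its other probe set was at 24.1, 32.6 and 10.6, and the mean of both gave 0.67 at 10 h. With 1 array per time, such excursions have no measured spread to be set against. The sum over 12 macrophage markers was 1508.8, 1483.8 and 1477.4 at 0, 6 and 10 h.

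**Figure D4:**
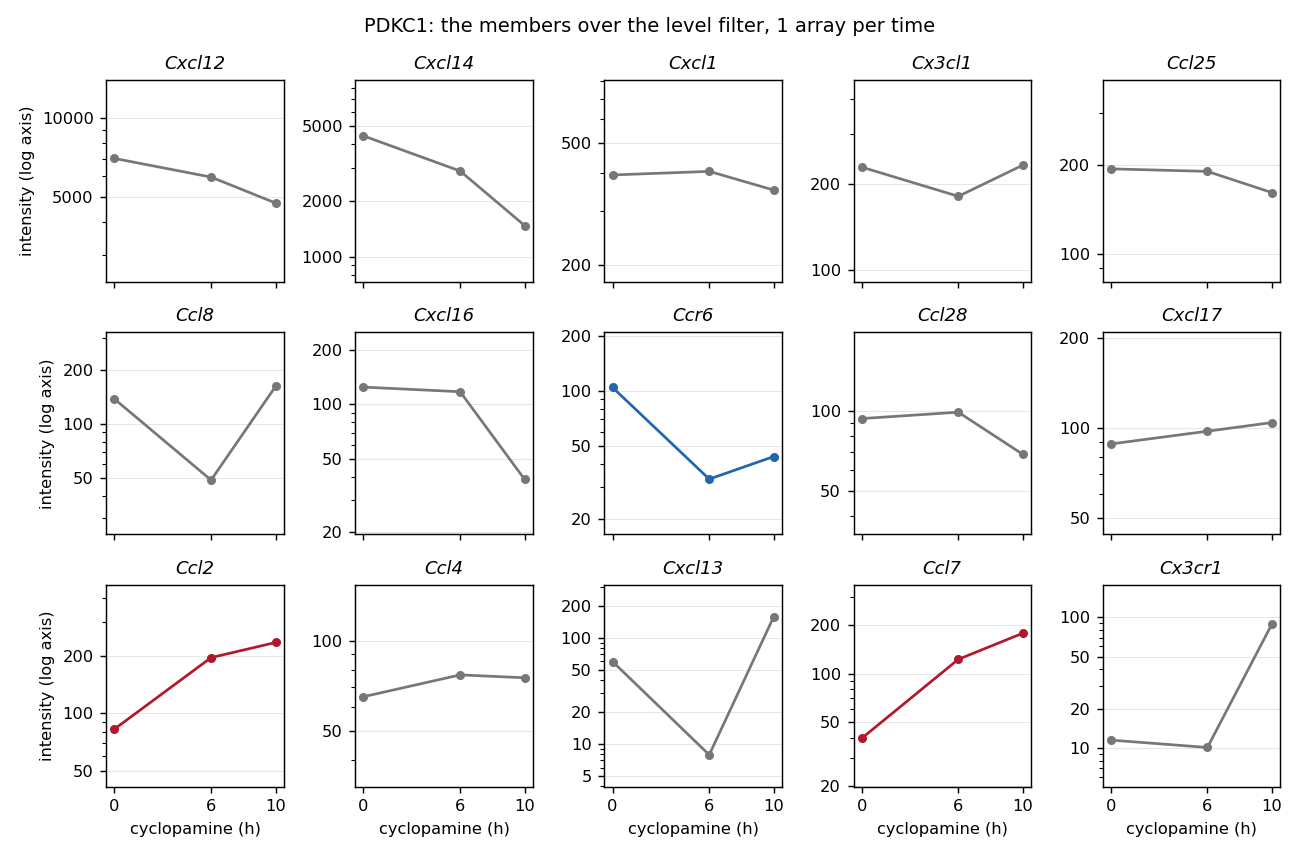
Intensity on a log axis (y) against hours with cyclopamine (x) in PDKC1 for the 15 genes that passed the filter on level, in order of brightness at 0 h; each point is 1 array, lines join the times, and the scale differs between panels. Red marks Ccl2 and Ccl7, at least 2-fold higher at both times, and blue marks Ccr6, at least 2-fold lower at both.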

How the data were processed

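RNA of 7 samples was measured on Affymetrix mouse arrays; biotinylated cRNA was made from 100 ng (tissues) or 2 µg (PDKC1) of total RNA, per the labels' protocols. Per probe set (45101 in all) the authors deposited a linear signal intensity; the software that summarised probes is not given in the sources used here. On each array the mean after trimming 2% at either end was 500, and no further scaling was applied. Left out were 64 control probe sets, 9160 that lack a gene name and 932 that name several genes. Intensities were taken as log2(intensity + 16). Tumour and epidermis were compared over 18193 genes with limma 3.58.1 in R 4.3.3 (lmFit, eBayes with a variance trend, two-sided, Benjamini-Hochberg), which was also tested on simulated data. A fold change is on the log2(intensity + 16) scale and understates changes of dim genes. The number of arrays limits the precision.

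Genes named were those called, those at least 2-fold from 0 h at both times in PDKC1 and the 6 brightest there. Genes whose probe sets disagreed and the brightest of each role list without a call were named too. Of each other list up to 4 called genes were planned, but more were named for receptor signalling and for cytokines. Members named beyond these rules were chosen after their values were seen. The members and lists were chosen with earlier results of these data known. Alternatives changed 1 choice at a time: scaling, pseudocount (4 or 64), filters, probe set rule, variance trend, replicate block, each tissue array left out, a 2-fold minimum, and a fit of all 7 arrays.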

Additional observations from a re-analysis of the deposited data

Results flagged for a closer look

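Cxcl13 in PDKC1 was lower at 6 h and higher at 10 h than at 0 h, past 2-fold each way: its intensity was 59.8, 7.9 and 158.0 at 0, 6 and 10 h, a log2 difference of -1.67 at 6 h and 1.20 at 10 h. The other probe set of the gene was at 30.0, 24.4 and 23.9. With the mean of both probe sets the differences were -0.93 and 0.50. There was 1 array per time, and the difference between the times was not tested. No group had the 4 arrays that a check for outlying samples needs.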

How the results depend on the processing

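Against 6 genes higher and 3 lower in tumour, quantile normalization gave 2 and 8, centring each array on its median 2 and 8, and all 7 arrays in 1 fit 10 and 4. Of all genes, 16.6% were higher and 12.5% lower in the main fit. These shares were 11.9% and 14.8% with quantile normalization, 8.04% and 25.9% with centring and 21.2% and 17% with all 7 arrays. Leaving out 1 tissue array gave 2 to 9 higher and 0 to 5 lower; without epidermis 1 or epidermis 2 the counts were 2 and 0 each, without tumour 1 they were 9 and 4 and without tumour 2 they were 4 and 5. The cause was not tested, nor was the part of the smaller number of arrays. The counts moved by less than 1.5 times with a pseudocount of 4 (6 and 3) or 64 (5 and 3), genes under the 40th percentile left out (6 and 3), the mean of all probe sets (5 and 3), no variance trend (6 and 3, with Ccr2 in place of Cxcr4), at least 2-fold calls (6 and 3) and all probe sets (7 and 4). Ccl8 and Cxcl12 were called in all 15 alternatives.

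With the replicate number as a block 9 genes were higher and 3 lower, against 15.9% and 12.2% of all genes. No label ties the numbers across tissues. Over genes the difference between tumour 1 and 2 had a correlation of -0.000636 with that between epidermis 1 and 2. Such a correlation cannot show whether samples of the same number were handled together, so the pairing is unknown.

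Among the lists, the 6 NF-kB pathway genes higher were 4 with quantile normalization and 3 with centring, the 5 signalling genes 3 and 3, and the 3 cytokine genes 1 and 0. The share of all genes higher was 11.9% and 8.04% under these scalings.

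In PDKC1 the 2 genes higher at both times were 0 with a pseudocount of 64. The 1 gene lower at both times was 0 with quantile normalization, centring and a pseudocount of 64, 2 with a 1.5-fold threshold (with Cxcl14) and 3 with no filter on level (with Cxcl5 and Ccr8). The files carry no detection calls, and 17 of the 48 genes were above the median probe set on no array, so a difference in these may not be detectable.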
